A study of Mus musculus with 36 samples.

Results

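The aminoacyl-tRNA synthetases, the enzymes that join each amino acid to its tRNA, were followed as 36 genes in 36 RNA-seq libraries of mouse tissues and germ cells. Members were listed by gene symbol, with earlier results of these data known, and all stood in the 6 deposited count tables, which share 51413 genes. The related gene Tarsl2 also stood in all 6 but was listed among the partners described further on. Symbols ending in 2 name the 16 mitochondrial enzymes, and the other 20 members are cytosolic. All mice are labelled C57BL/6 wildtype, and the methods name the substrain C57BL/6N. Males were fed for 2 weeks, from 6 to 8 weeks of age, on a high-fat diet (HFD, 60 kcal % fat) or a low-fat diet (LFD, 10 kcal % fat). Spermatozoa of the cauda epididymis were purified by swim-up (3 HFD and 3 LFD libraries), and morulae came from in vitro fertilization of oocytes of unexposed females with sperm of such males, followed by 72 h of culture and picking by eye (3 HFD and 3 LFD libraries). Round spermatids, the haploid cells of the testis before they elongate, were isolated on a density gradient from HFD and LFD males and are 6 libraries here, since the table does not say which diet each column holds. Liver, epididymal white adipose tissue (eWAT) and gastrocnemius muscle are 6 libraries each, from male offspring of HFD-fed fathers, with glucose-tolerant (HFDt) and glucose-intolerant (HFDi) animals together for the same reason. The offspring themselves ate chow after weaning, by the methods, and their age at sampling is not given in the sources used here. The tissue of these 24 libraries was read from the name of their table, which holds as many columns as the tissue has samples, and their replicates are numbered by rising total count.

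Total counts were 2560219 to 4062321 per library in sperm, 11471251 to 12153141 in morula, 20138842 to 31056066 in round spermatids, 2036237 to 2552454 in liver, 1338149 to 4055537 in eWAT and 369772 to 2749920 in gastrocnemius. Of the defining markers, the hepatocyte list summed to 61374 to 87791 CPM (counts of a gene over all counts of the library, scaled to 1000000) in liver, the adipocyte list to 32627 to 46171 CPM in eWAT, the muscle list to 45187 to 96119 CPM in gastrocnemius, the sperm list to 2678 to 5596 CPM in sperm and 8797 to 11333 CPM in round spermatids, and the morula list to 740.0 to 881 CPM in morula. Sperm libraries also held markers of other cells: the epididymal list summed to 1598 to 2606 CPM on HFD and 2484 to 23509 CPM on LFD, and the leukocyte list to 302 to 837 CPM and 1576 to 3972 CPM. The eWAT libraries held muscle markers at 42.7 to 1388 CPM and hepatocyte markers at 97.1 to 1122 CPM. Adipocyte markers summed to 229 to 1203 CPM in gastrocnemius and 23.1 to 85.0 CPM in liver. The part of these markers in the comparisons of tissues was not tested. eWAT library 4 held 71.5 CPM of sperm and spermatid markers, and gastrocnemius library 1 had the fewest counts. For 3 of 6 morula samples the description names the other diet than the title and the treatment field, which were followed. In sperm, genes encoded in mtDNA took 78.1 to 84.3% of the counts on HFD and 43.5 to 64.7% on LFD. In these bulk samples fewer cells of a type and less RNA per cell cannot be told apart, and nothing says that the replicates are separate cultures or animals in every group, so p-values measure the spread between these samples.

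In mouse symbols the letter before "ars" is the code of the amino acid: Aars charges alanine, Lars leucine, Tars threonine, Wars tryptophan. Eprs is a fused enzyme for glutamate and proline, Farsa and Farsb are the subunits of the cytosolic phenylalanine enzyme, and Kars and Gars each serve the cytosol and the mitochondria from a single gene. The mitochondrial enzymes are encoded in the nucleus, imported, and charge the tRNAs encoded in mtDNA, which the respiratory chain proteins made in mitochondria need. Several cytosolic enzymes (Eprs, Iars, Lars, Mars1, Qars, Rars, Kars and Dars) are held together by the scaffolds Aimp1, Aimp2 and Eef1e1 in the multi-synthetase complex. Many cytosolic synthetase genes are known targets of Atf4, the transcription factor of the amino acid and integrated stress response.

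Promoter letters were read for this reason. RefSeq promoters of 300 bases, 250 before and 50 after the annotated start, were on hand for 27 of the 36 members (13 cytosolic, 14 mitochondrial). The letters TGATGNAA, the core of the C/EBP-ATF element that Atf4 binds, stood on either strand in promoters of 5 of 13 cytosolic genes and 0 of 14 mitochondrial ones. Of all 27025 genes with a RefSeq promoter of this length, 4.51% hold them in a promoter. The cAMP response element TGACGTCA was in 0 of the 27 (2.03% of all genes). CCGGAAG, the core of an ETS factor site, was in 5 of 13 cytosolic and 4 of 14 mitochondrial genes (9.93% of all genes). A match is a description of letters and not a shown binding site. The promoters with TGATGNAA follow because these letters were found in cytosolic members alone. They are from build GRCm38.p6, written 5′ to 3′ on the gene's own strand, and capitals mark the TGATGNAA letters in either orientation and, in Gars, also CCGGAAG. Aars is at chr8:111033592-111033891 (plus strand), Gars at chr6:55037751-55038050 (plus strand), Iars at chr13:49681880-49682179 (plus strand), Tars at chr15:11399609-11399908 (minus strand) and Yars at chr4:129189653-129189952 (plus strand).
Aars: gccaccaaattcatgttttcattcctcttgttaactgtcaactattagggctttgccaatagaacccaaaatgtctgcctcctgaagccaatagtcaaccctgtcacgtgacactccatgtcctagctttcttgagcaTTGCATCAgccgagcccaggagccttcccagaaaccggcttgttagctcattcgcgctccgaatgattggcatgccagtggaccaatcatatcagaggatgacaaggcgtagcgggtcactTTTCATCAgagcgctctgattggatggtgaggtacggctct
Gars: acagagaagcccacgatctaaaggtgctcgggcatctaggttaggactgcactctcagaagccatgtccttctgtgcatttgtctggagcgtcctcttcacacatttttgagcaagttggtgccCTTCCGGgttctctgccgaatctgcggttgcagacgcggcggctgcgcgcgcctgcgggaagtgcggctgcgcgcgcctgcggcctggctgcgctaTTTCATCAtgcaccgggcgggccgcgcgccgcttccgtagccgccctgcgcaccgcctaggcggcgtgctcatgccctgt
Iars: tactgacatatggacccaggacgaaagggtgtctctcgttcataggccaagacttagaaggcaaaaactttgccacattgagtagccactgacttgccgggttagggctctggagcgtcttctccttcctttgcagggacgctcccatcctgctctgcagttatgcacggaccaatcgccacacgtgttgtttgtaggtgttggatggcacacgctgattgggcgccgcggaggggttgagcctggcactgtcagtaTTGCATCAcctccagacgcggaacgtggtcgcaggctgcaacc
Tars: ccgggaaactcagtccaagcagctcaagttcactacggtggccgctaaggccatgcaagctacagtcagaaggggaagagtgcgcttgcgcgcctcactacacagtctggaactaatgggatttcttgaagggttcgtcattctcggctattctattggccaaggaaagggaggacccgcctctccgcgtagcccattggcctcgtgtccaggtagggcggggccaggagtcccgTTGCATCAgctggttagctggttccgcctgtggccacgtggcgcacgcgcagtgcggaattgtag
Yars: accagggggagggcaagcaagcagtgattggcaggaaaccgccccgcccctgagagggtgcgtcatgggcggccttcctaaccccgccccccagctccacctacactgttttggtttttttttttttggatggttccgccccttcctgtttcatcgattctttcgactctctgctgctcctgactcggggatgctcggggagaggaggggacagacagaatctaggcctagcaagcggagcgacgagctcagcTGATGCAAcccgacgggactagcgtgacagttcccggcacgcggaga
In the comparisons of tissues described further on, 2 of these 5 genes rose and 3 fell in liver over gastrocnemius, where 34.9% of all genes rose and 31.5% fell. In liver over eWAT 2 rose and 0 fell (28.9% and 32.7% of all genes). With library totals in place of the scaling used 2 rose and 2 fell (1406 and 6995 of all 10851 genes). In eWAT over gastrocnemius 0 rose and 4 fell (41.1% and 26.3%), and 1 and 1 with library totals (7357 and 1227 of all 10851 genes). In round spermatids over morula 1 rose and 4 fell (58.9% and 33.7%).

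Which synthetases each tissue held most of is shown by the levels. Liver, eWAT and gastrocnemius libraries were made with a 3′ kit that gives about 1 read per transcript, so members are compared there in CPM; sperm, round spermatid and morula libraries cover whole transcripts, so members are compared there in CPM per kilobase of exon (CPM per kb). In the 3 somatic tissues the highest member was Eprs. Its level was 233 to 298 CPM (median 257) in liver, 343 to 483 CPM (median 375) in eWAT and 410.3 to 606 CPM (median 505) in gastrocnemius, and the ranges of eWAT and gastrocnemius overlap while liver lies below both on this scale. Eprs transcripts share stretches of up to 204 bases at 97.06% identity with 8 other annotated genes, so part of its reads may be uncertain. Nars, the cytosolic asparagine enzyme, was among the 3 highest members in each of these tissues, at a median of 85.1 CPM in liver, 115 CPM in eWAT and 118 CPM in gastrocnemius; Tars took a place among the 3 highest in liver (81.5 to 128 CPM (median 110.0)), Farsa in eWAT (117 to 188 CPM (median 134)) and Sars in gastrocnemius (52.4 to 90.2 CPM (median 73.8)). These rankings put only cytosolic genes at the top of the 3 somatic tissues.

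Mitochondrial genes took the lowest places, with 1 exception. Pars2, the mitochondrial proline enzyme, was among the 3 lowest in all 6 tissues and cell types: it ranged 0 to 5.48 CPM (median 0.736) in liver, 0.532 to 4.01 CPM (median 2.35) in eWAT and 0 to 6.41 CPM (median 0.958) in gastrocnemius, and 0.180 to 0.320 CPM per kb (median 0.254) in round spermatids. In sperm Pars2 was at 0 in the 3 HFD libraries, and the 3 LFD libraries held 24 reads in all; Vars2 was at 0 in 4 of 6 sperm libraries. With counting error alone, a gene at 0 could still have 3 counts, equal to 0.738 to 1.17 CPM in a sperm library and 1.09 to 8.11 CPM in a gastrocnemius library. The exception was Wars, low in liver at 0 to 6.29 CPM (median 1.80), against 9.68 to 13.2 CPM (median 10.3) in eWAT.

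**Figure D1:**
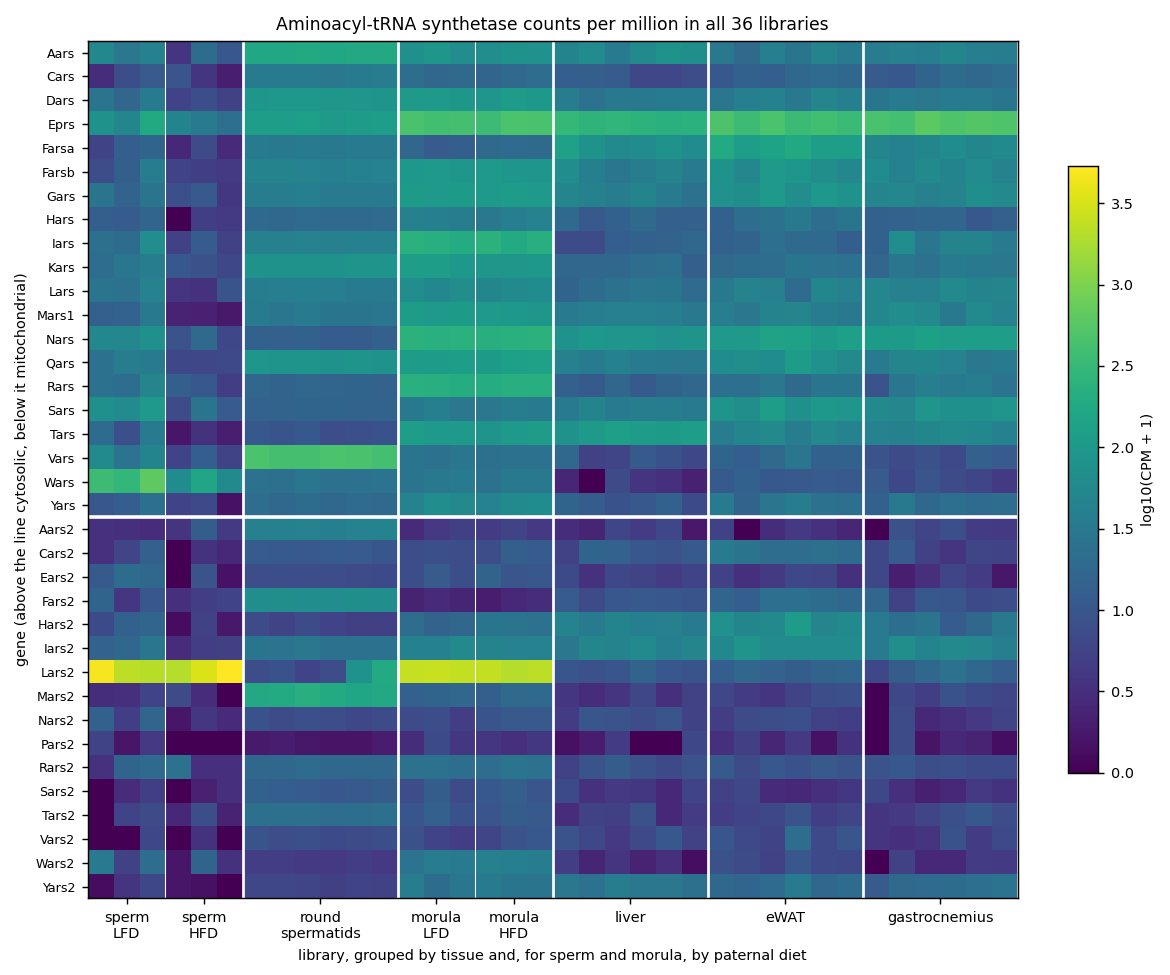
Level of the 36 members (rows, cytosolic above mitochondrial) in each of the 36 libraries (columns, by tissue), as the color of log10(CPM + 1). Eprs is bright across the somatic tissues, Lars2 is bright in sperm and morula and dark elsewhere except in 2 round spermatid libraries, and the bottom of the mitochondrial block is dark in sperm.

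Germ cells and embryos had other leading members. Round spermatids were led by Vars, the cytosolic valine enzyme, at 74.2 to 84.4 CPM per kb (median 77.2), then by Fars2, the mitochondrial phenylalanine enzyme, at 30.9 to 32.9 CPM per kb (median 31.4), and Dars, the aspartate enzyme, at 19.3 to 22.3 CPM per kb (median 21.1). Morulae were led by Lars2, then by Rars (61.6 to 71.9 CPM per kb (median 68.5)) and Nars (51.7 to 57.6 CPM per kb (median 54.2)), and held the least of Fars2 (0.163 to 0.358 CPM per kb (median 0.275)), Aars2 (0.381 to 0.995 CPM per kb (median 0.722)) and Pars2 (0.666 to 1.92 CPM per kb (median 0.957)). The place of Fars2 in round spermatids rests on the exon length of that table, 2125 bases against 5747 in the morula table: with the latter its level was 11.4 to 12.1 CPM per kb (median 11.6) and its rank 8 instead of 2. Fars2 also shares 503 bases of transcript with Nrn1, so part of its reads may be uncertain. Sperm were led by Lars2, Wars and Nars, with medians of 254, 64.5 and 13.4 CPM per kb.

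Lars2, the mitochondrial leucine enzyme, was set apart by its level. In sperm it ranged 186 to 481 CPM per kb (median 254) and in morula 183 to 237 CPM per kb (median 221), whereas the next member of each list, Wars in sperm and Rars in morula, reached at most 182 and 71.9 CPM per kb. As CPM, sperm held 2066, 3407 and 5328 on HFD and 2149, 2234 and 4774 on LFD, and morula 2033, 2235 and 2459 on HFD and 2453, 2483 and 2623 on LFD. Round spermatids split: 4 libraries lay at 4.57, 6.55, 6.61 and 7.79 CPM, and the 2 libraries with the most counts at 80.4 and 190.1 CPM. Liver, eWAT and gastrocnemius held 7.36 to 14.5 CPM (median 8.91), 11.7 to 16.05 CPM (median 13.99) and 5.41 to 23.3 CPM (median 14.3). No other annotated transcript matched Lars2 at 97% identity over 75 bases or more. Genes with ribosomal RNA sequence (Gm26917, Gm42418 and AY036118) took 0.0765 to 0.156% of the counts in sperm and 1.11 to 1.81% in round spermatids, where the 2 libraries of high Lars2 had 1.17 and 1.11%. In sperm and round spermatids these counts were all on Gm26917, with Gm42418 and AY036118 at 0. The genes with ribosomal RNA sequence were not analysed in morula, and their part in the level of Lars2 was not tested. Kits and read layouts differ between these tables, so the levels stand side by side without a test, and tissue and table cannot be told apart.

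Wars, the cytosolic tryptophan enzyme, which interferon is known to induce, was the other member that stood out in sperm. It held 59.5, 64.1 and 154 CPM on HFD and 291, 352 and 627 CPM on LFD, against 24.5 to 32.5 CPM over the 6 morula libraries and 23.1 to 28.1 CPM in round spermatids. On the scale of library totals the diets did not overlap; after scaling between libraries they did (126, 136 and 218 on HFD, 189.3, 235 and 246 on LFD). Leukocyte markers (7 of 7 with a count) summed to 302 to 837 CPM on HFD and 1576 to 3972 CPM on LFD in the same libraries, and their part in the level of Wars was not tested.

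**Figure D2:**
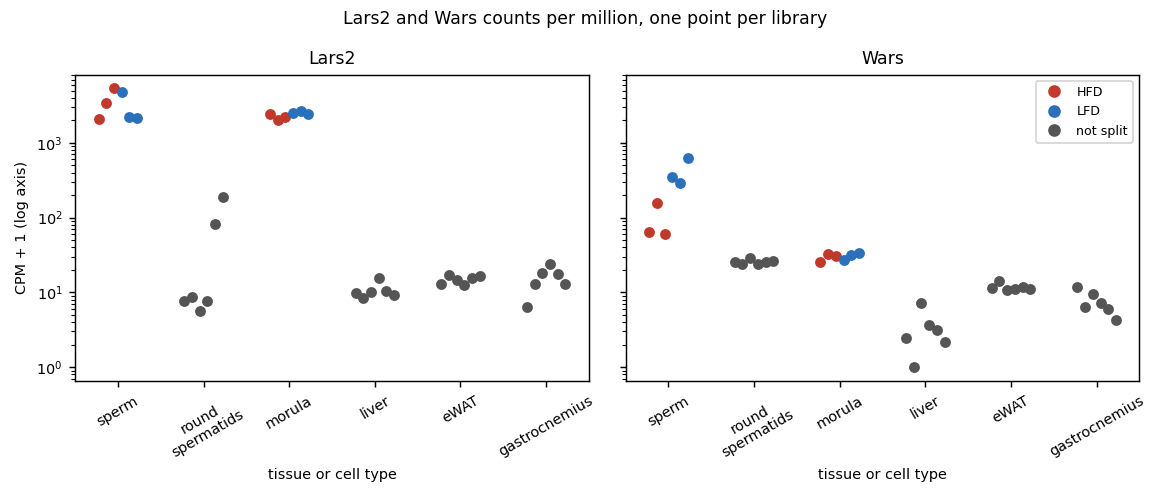
Level of Lars2 and Wars in every library, as CPM + 1 on a log axis, with libraries grouped by tissue and, in sperm and morula, by diet. Lars2 lies at 2033 CPM or more in all sperm and morula libraries, and Wars in the 3 LFD sperm libraries (291 to 627 CPM) lies above Wars in every other library.

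The balance of cytosolic to mitochondrial enzymes was then taken as the ratio of their summed levels in a library, a description without a test. It was highest in gastrocnemius (6.44 to 8.96 (median 8.19)), lower in eWAT (4.09 to 6.44 (median 5.21)) and liver (4.35 to 6.02 (median 5.11)), and lower again in round spermatids (2.47 to 3.11 (median 2.90)). The ranges of gastrocnemius and eWAT meet, those of eWAT and liver overlap, and round spermatids lie below all 18 somatic libraries, though on the scale per kb. In morula it was 1.52 to 1.87 (median 1.66) and in sperm 0.0756 to 1.62 (median 0.372). Lars2 set the last 2 values: without it the ratio was 8.43 to 10.4 (median 9.73) in morula and 3.94 to 11.6 (median 8.52) in sperm, and 2.91 to 3.13 (median 3.01) in round spermatids. Exchanging the scales (CPM for CPM per kb) brought the median of morula to 0.822, and the median over genes in place of the sum gave 10.9 there, so the order of the tissues is tied to the measure as well as to Lars2.

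By diet, the ratio without Lars2 was 8.43, 8.59 and 9.40 in HFD morulae and 10.1, 10.1 and 10.4 in LFD morulae, and 3.94, 6.74 and 7.66 in HFD sperm and 9.39, 11.4 and 11.6 in LFD sperm. The diets did not overlap in either, but with all 36 members morula overlapped (1.52, 1.80 and 1.87 against 1.57, 1.62 and 1.71), and sperm with the median over genes. In sperm with all members the values were 0.0756, 0.218 and 0.259 on HFD and 0.484, 0.835 and 1.62 on LFD. Wars weighs on the level of the ratio in sperm. Without Lars2 and Wars the ratio was 2.24, 3.12 and 4.05 on HFD and 5.09, 5.74 and 6.17 on LFD, and the diets still did not overlap. The leukocyte and epididymal markers given above differ by diet in the same sperm libraries, and their part in the ratio was not tested.

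**Figure D3:**
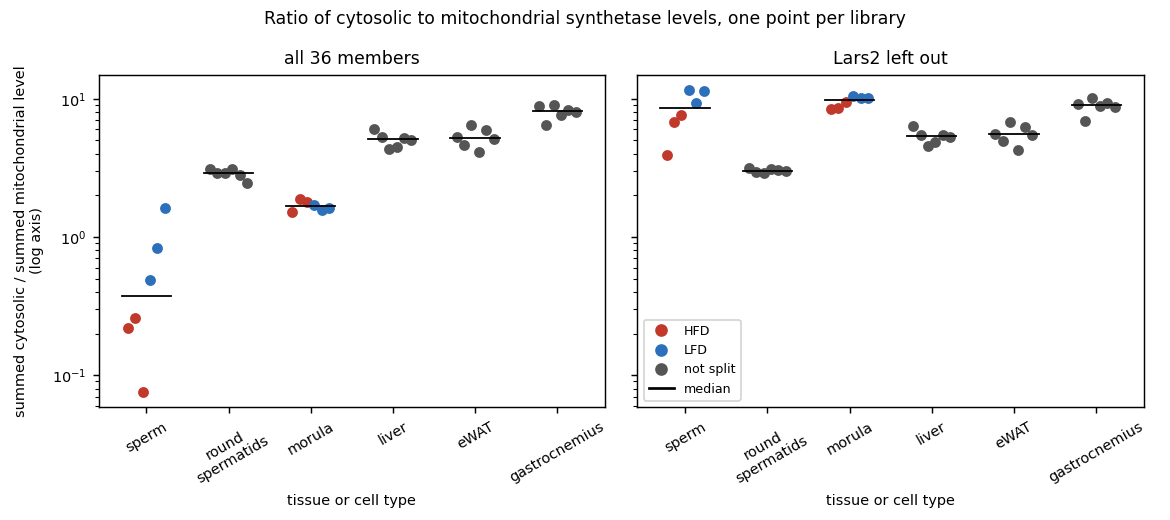
Ratio of summed cytosolic to summed mitochondrial synthetase level in each library (log axis), with all 36 members on the left and with Lars2 left out on the right. Leaving out Lars2 moves morula from a median of 1.66 to 9.73 and sperm from 0.372 to 8.52, and round spermatids (3.01) then hold the lowest median.

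Whether the synthetases differed by diet in sperm was tested within the 6 sperm libraries. No member passed: 29 of 36 had enough reads (20 cytosolic, 9 mitochondrial), and edgeR's quasi-likelihood test with Benjamini-Hochberg adjustment called 0 of them, as it called 0% of all 8643 genes. The lowest adjusted p of a member was 0.279. At an unadjusted p under 0.05 stood 1 higher member (Lars2) and 2 lower ones (Mars1 and Tars), where all genes gave 8.38% higher and 4.63% lower. DESeq2 called 1 member (Lars2, adjusted p = 0.0272), where it called 286 of the 6795 genes with an adjusted p. With limma-voom 0 members and 0 of all genes were called.

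Lars2 held 4049, 4844 and 12207 CPM scaled between libraries (TMM) on HFD and 844, 1453 and 3186 on LFD, log2 fold change 1.94 ± 0.72 (SE), adjusted p = 0.284 in edgeR. The groups do not overlap on this scale, but they do in unscaled CPM, and when library totals set the scale the fold change was 0.24 while the median of all genes was -1.82. Mars1, the cytosolic methionine enzyme, held 1.75, 1.87 and 2.62 scaled CPM on HFD and 8.48, 8.96 and 12.3 on LFD (log2 fold change -2.25 ± 0.82 (SE), adjusted p = 0.279), from 12 reads in all on HFD and 159 on LFD. Tars held 1.31, 2.49 and 3.50 on HFD and 4.69, 12.6 and 13.5 on LFD (log2 fold change -2.02 ± 0.84 (SE), adjusted p = 0.323), from 16 and 165 reads. For both the HFD libraries lie below all LFD libraries, on few reads. Nars lay lower without overlap (12.5, 15.7 and 26.6 against 28.7, 33.7 and 35.97, log2 fold change -0.83 ± 0.51 (SE), adjusted p = 0.542). Tars2, the mitochondrial threonine enzyme, lay higher (3.11, 3.27 and 9.80 against 0, 2.45 and 2.99, log2 fold change 1.57 ± 1.13 (SE), adjusted p = 0.604; -0.11 with library totals).

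Non-overlap was counted over all tested members: HFD lay above LFD for 2 (Lars2 and Tars2), where 8.21% of all genes did so, and below for 7 (Dars, Mars1, Nars, Qars, Sars, Tars and Iars2), where 12.2% did. Of the 20 cytosolic members 18 had a fold change below 0 with a median of -0.48, and 4565 of all 8643 genes lay below 0. With DESeq2 size factors 15 members did (4135 of all genes), and with library totals 20 did (8067 of all genes). The 9 mitochondrial members had a median of -0.20, and all genes -0.07. Scaling weighs on these values, since TMM factors were 0.440 to 0.710 on HFD and 1.52 to 2.62 on LFD. With library totals 14 members passed, all lower on HFD, where 3265 of all 8643 genes passed lower and 1 higher. Leukocyte markers differed as given for Wars, and epididymal markers summed to 1598 to 2606 CPM on HFD (5 of 8 with a count; Lcn8, Lcn9 and Spint4 at 0) and 2484 to 23509 CPM on LFD (6 of 8; Lcn9 and Spint4 at 0). The part of these markers and of the mtDNA share in the members' values was not tested. In a simulation built on the sperm libraries, 12% of the genes given a log2 change of 2 were called by edgeR.

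In morulae the same question was asked with deeper libraries. All 36 members were tested, edgeR called 0 of them (0% of 13447 genes), and the lowest adjusted p was 0.687; DESeq2 and limma-voom also called 0. At an unadjusted p under 0.05, 3 members were higher (Hars2, Nars2 and Farsa; 3.55% of all genes) and 1 was lower (Kars; 2.83%). In a simulation over all 13447 genes, edgeR called 77.5% of those given a log2 change of 2; the members were not simulated apart.

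The values of these members lay apart by small amounts. Hars2, the mitochondrial histidine enzyme, held 22.5, 25.99 and 28.1 scaled CPM with HFD fathers and 14.4, 16.1 and 20.01 with LFD fathers (log2 fold change 0.60 ± 0.18 (SE), adjusted p = 0.687). Nars2, the mitochondrial asparagine enzyme, held 8.59, 9.70 and 9.79 against 3.79, 5.96 and 7.11 (log2 fold change 0.74 ± 0.30 (SE), adjusted p = 0.727). Farsa held 18.1, 18.6 and 18.9 against 11.02, 12.7 and 16.1 (log2 fold change 0.48 ± 0.20 (SE), adjusted p = 0.729). HFD lies above LFD in all 3 genes. Kars held 89.7, 92.7 and 96.3 against 98.0, 115 and 119 (log2 fold change -0.25 ± 0.11 (SE), adjusted p = 0.731) and Vars 23.2, 23.3 and 23.6 against 24.3, 25.7 and 28.7 (log2 fold change -0.17 ± 0.15 (SE), adjusted p = 0.902), both with HFD below. These 3 members above and 2 below without overlap stand against 5.94% and 6.18% of all genes. Hars2 shares 195 bases with Hars on the other strand, and whether the counting used strand is not given in the sources used here.

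Cytosolic and mitochondrial members lay on opposite sides of 0 in morula, by little. Of 20 cytosolic genes 17 had a fold change below 0 (median -0.06), and of 16 mitochondrial genes 13 lay above 0 (median 0.17). The median of all 13447 genes was 0.01, with 6430 below 0 and 7017 above. With library totals 13 cytosolic genes lay below 0, without the library MH5 12 did, and without MH6 9 mitochondrial genes lay above 0. Of the genes named in every comparison, Kars is given above. The others were Lars2 at -0.19 ± 0.09 (SE, n = 3 per diet, edgeR adjusted p = 0.769), Eprs -0.01 ± 0.09, Gars -0.01 ± 0.10 and Qars 0.05 ± 0.10. In sperm the same 3 genes after Lars2 were at 0.28 ± 0.49, -0.07 ± 0.63 and -0.80 ± 0.59, and Kars at -0.15 ± 0.57. No effect was tested for a difference between sperm and morula.

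**Figure D4:**
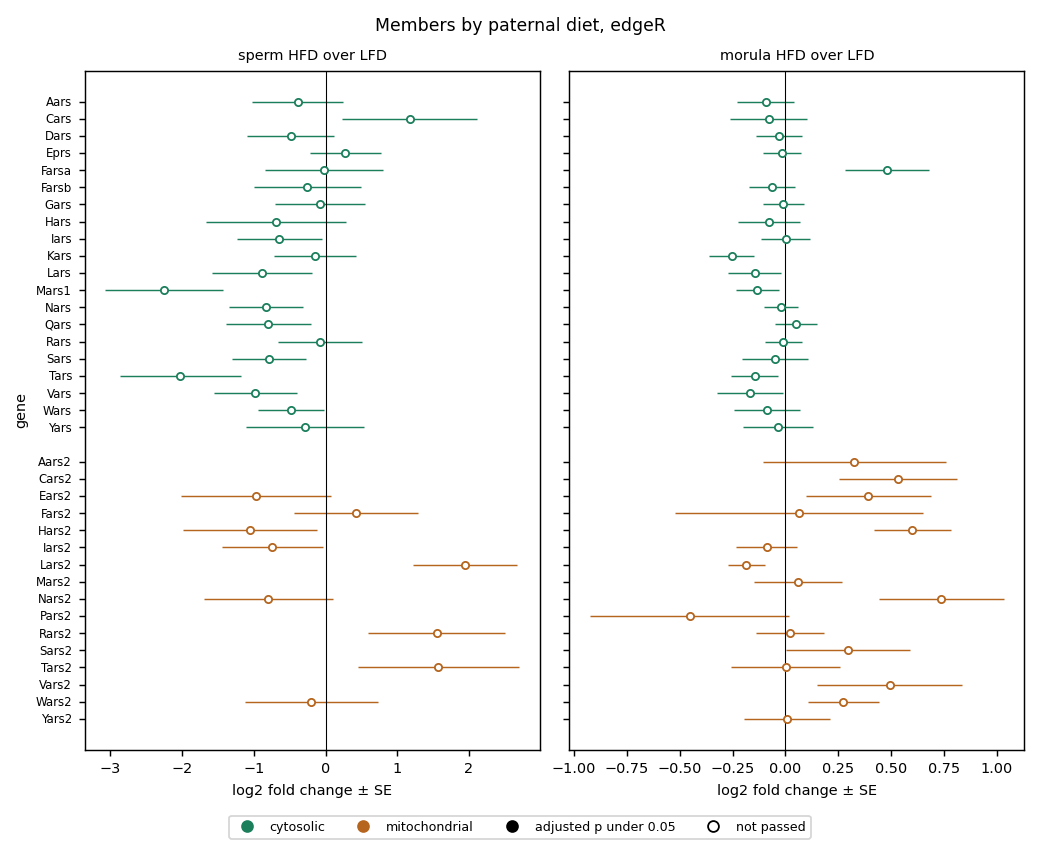
Log2 fold change of each member, HFD over LFD, with its SE from edgeR, in sperm (left) and morula (right); the axes differ in range. All points are open because none passed an adjusted p of 0.05, and in morula 13 of the 16 mitochondrial points lie right of 0 and 17 of the 20 cytosolic points left of it.

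In liver over gastrocnemius (6 libraries per tissue, as in the other comparisons of tissues), cytosolic members were mostly lower in liver. Of the 32 members tested 7 rose and 13 fell in liver over muscle, against 34.9% and 31.5% of all 10851 genes. Among cytosolic genes 3 rose and 12 fell (median -0.50), and among the 12 mitochondrial genes tested 4 rose and 1 fell (median 0.26), a share of rises near that of all genes; the median of all genes was 0.06. Aars2, Pars2, Sars2 and Wars2 had too few reads.

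Higher in liver was Tars at 104 to 153 (median 135) scaled CPM, against 50.7 to 72.9 (median 61.96) in muscle (log2 fold change 1.11 ± 0.16 (SE), adjusted p = 2.53e-06, edgeR as in all 3 somatic comparisons). Nars2, for asparagine in mitochondria, held 4.37 to 11.8 (median 8.80) against 0 to 7.61 (median 3.40) (log2 fold change 0.95 ± 0.37 (SE), adjusted p = 0.0285). Cars2, for cysteine, held 5.62 to 19.6 (median 11.95) against 3.44 to 12.7 (median 6.39) (log2 fold change 0.93 ± 0.31 (SE), adjusted p = 0.012), and Hars2 40.3 to 57.5 (median 48.01) against 13.8 to 43.01 (median 30.2) (log2 fold change 0.76 ± 0.24 (SE), adjusted p = 0.00839). Liver and muscle stay apart for Tars and overlap for the 3 mitochondrial genes. Aars (41.9 to 98.8 (median 77.7) against 43.5 to 62.6 (median 48.4), log2 fold change 0.54 ± 0.22 (SE), adjusted p = 0.0332) passed by little: limma-voom gave an adjusted p of 0.0654 and leaving out gastrocnemius library 1 0.0587. It shares 1326 bases of exon with Exosc6 on the same strand.

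Lower in liver was Iars, the cytosolic isoleucine enzyme, at 8.12 to 20.7 (median 15.5) scaled CPM against 16.7 to 78.6 (median 50.8) (log2 fold change -1.81 ± 0.27 (SE), adjusted p = 3.29e-06). Wars fell as well (0 to 7.51 (median 2.22) against 4.45 to 13.4 (median 6.96), log2 fold change -1.40 ± 0.45 (SE), adjusted p = 0.00852), with 1 liver library at 0. Rars, the arginine enzyme, held 12.7 to 21.6 (median 17.1) against 10.04 to 50.7 (median 38.6) (log2 fold change -1.18 ± 0.24 (SE), adjusted p = 0.000147). Its partner in the multi-synthetase complex, Lars, held 18.7 to 34.4 (median 28.1) against 49.4 to 74.3 (median 62.1) (log2 fold change -1.15 ± 0.22 (SE), adjusted p = 8.16e-05). Sars, the serine enzyme, which is not in the complex, held 39.2 to 60.1 (median 43.3) against 62.1 to 123 (median 93.1) (log2 fold change -1.06 ± 0.19 (SE), adjusted p = 3.27e-05). Liver and muscle do not overlap for Lars and Sars and do overlap for Iars, Wars and Rars. The 8 cytosolic enzymes of the complex, a grouping formed after values had been seen, gave 0 higher and 6 lower in liver, and the other 12 cytosolic genes 3 higher and 6 lower.

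Liver against eWAT turned on the scaling. With TMM 11 members were higher in liver and 1 lower (28.9% and 32.7% of all genes), 6 and 1 among cytosolic and 5 and 0 among mitochondrial genes. With library totals 3 were higher and 19 lower, where 1406 and 6995 of all 10851 genes were. The median of all genes moved from -0.07 to -0.996 between these scalings, and the members' median relative to it stayed at 0.35 and 0.36. TMM factors were 0.756 to 0.844 in liver and 1.45 to 1.75 in eWAT.

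Tars was again the largest rise, 104 to 153 (median 135) scaled CPM in liver and 22.2 to 37.4 (median 31.2) in eWAT (log2 fold change 2.14 ± 0.16 (SE), adjusted p = 6.52e-11). Aars rose as well, 41.9 to 98.8 (median 77.7) against 11.6 to 30.3 (median 21.6) (log2 fold change 1.79 ± 0.22 (SE), adjusted p = 1.61e-07). So did Yars2, the mitochondrial tyrosine enzyme, 29.01 to 42.4 (median 36.03) against 9.75 to 19.5 (median 11.98) (log2 fold change 1.43 ± 0.19 (SE), adjusted p = 8.02e-07). For all 3 genes every liver library lies above every eWAT library. Nars2 (log2 fold change 1.20 ± 0.33 (SE), adjusted p = 0.00286) and Ears2, the mitochondrial glutamate enzyme (log2 fold change 1.14 ± 0.36 (SE), adjusted p = 0.00858), rose with TMM but with library totals gave 0.27 and 0.22 and did not pass. Wars was the member that fell (0 to 7.51 (median 2.22) against 5.92 to 8.31 (median 7.02), log2 fold change -1.29 ± 0.41 (SE), adjusted p = 0.00866), at 0 to 6.29 CPM in liver.

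In eWAT over gastrocnemius most cytosolic members fell, relative to a median of all genes of 0.35. With TMM 3 members rose and 20 fell (41.1% and 26.3% of all genes), 1 and 14 among cytosolic and 2 and 6 among mitochondrial genes. With library totals 10 rose and 3 fell while the median of all genes was 1.32, so the members' median relative to it was -0.98 and -0.99. With genes of mtDNA left out 1 rose and 21 fell (4039 and 3169 of all 10729 genes), and without eWAT library 4 1 rose and 20 fell (4454 and 2927 of all 11013).

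Iars fell most, 8.28 to 14.7 (median 9.76) scaled CPM in eWAT and 16.7 to 78.6 (median 50.8) in muscle (log2 fold change -2.24 ± 0.27 (SE), adjusted p = 1.26e-07). Mars1 followed at 18.4 to 31.5 (median 24.9) against 39.2 to 78.6 (median 68.8) (log2 fold change -1.36 ± 0.18 (SE), adjusted p = 4.52e-07). Eprs was at 204 to 321 (median 254) against 487 to 802 (median 649.8) (log2 fold change -1.30 ± 0.17 (SE), adjusted p = 4.21e-07). The tissues do not overlap for any of these 3 genes. Lars (log2 fold change -1.30 ± 0.22 (SE), adjusted p = 1.49e-05) and Kars (log2 fold change -1.26 ± 0.18 (SE), adjusted p = 2.05e-06) fell too, but with library totals gave -0.35 and -0.29 and did not pass. Of the enzymes of the complex 0 rose and 7 fell (1 and 3 with library totals). Of the other cytosolic genes 1 rose and 7 fell (5 and 0 with library totals). Of all 10851 genes 7357 rose and 1227 fell with library totals. Cars2 rose (12.4 to 21.4 (median 14.4) against 3.44 to 12.7 (median 6.39), log2 fold change 1.20 ± 0.30 (SE), adjusted p = 0.00121); it overlaps Naxd by 422 bases on the other strand. Hars2 (log2 fold change 0.55 ± 0.24 (SE), adjusted p = 0.0439) and Farsa (log2 fold change 0.49 ± 0.20 (SE), adjusted p = 0.0406) passed by little, and neither did without eWAT library 4 (0.111 and 0.0601). These 3 comparisons share their libraries, and each tissue is a single table.

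Among the always-named genes, Qars, the glutamine enzyme, passed in none of the 3 somatic comparisons (adjusted p of 0.261, 0.59 and 0.554 in edgeR), with scaled levels of 36.5 to 51.8 (median 44.04) in liver, 39.2 to 65.7 (median 42.7) in eWAT and 38.7 to 65.6 (median 51.2) in gastrocnemius. Gars was lower in liver than in muscle (log2 fold change -0.48 ± 0.19 (SE), adjusted p = 0.0324) and did not pass in the others. Lars2 was lower in liver (log2 fold change -0.72 ± 0.24 (SE), adjusted p = 0.0114) and in eWAT (log2 fold change -1.10 ± 0.23 (SE), adjusted p = 0.000257) than in muscle, at 6.69 to 28.9 (median 18.9) scaled CPM in muscle.

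**Figure D5:**
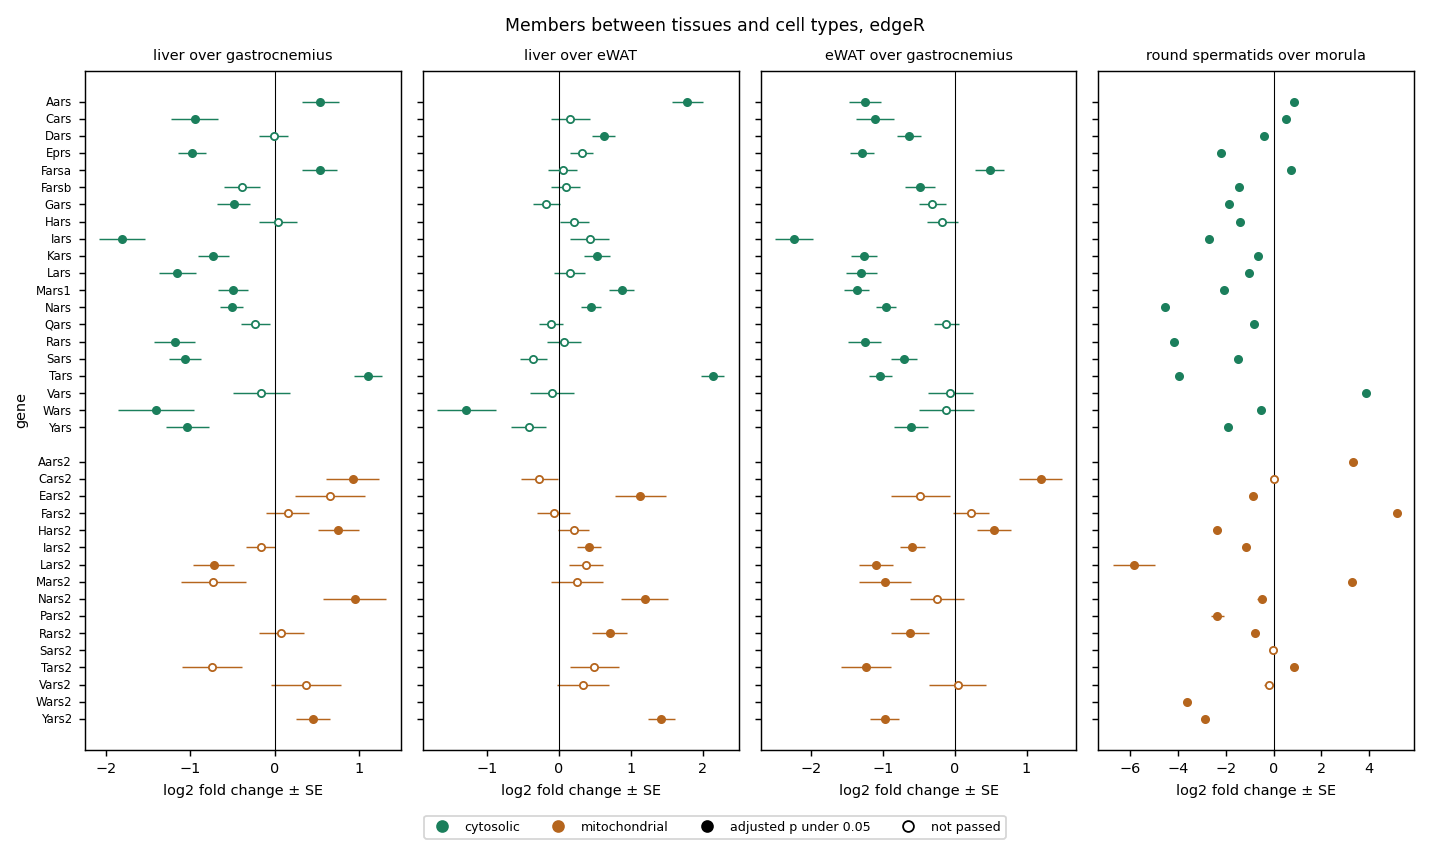
Log2 fold change of each member with its SE from edgeR in the 4 comparisons of tissues and cell types; filled points passed an adjusted p of 0.05 and missing rows had too few reads. Cytosolic points lie mostly left of 0 in liver over gastrocnemius (12 lower, 3 higher) and eWAT over gastrocnemius (14 lower, 1 higher), and Fars2, Vars, Aars2 and Mars2 lie far right in round spermatids over morula.

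Between round spermatids and morulae the family was split by single genes. Of the 36 members 8 rose and 25 fell in round spermatids, against 58.9% and 33.7% of all 20711 genes, 4 and 16 among cytosolic and 4 and 9 among mitochondrial genes. The median of all genes was 1.43 and that of the members -0.93, which is -2.37 relative to all genes and -2.36 with library totals. With library totals 8 members rose and 23 fell (12822 and 6360 of all 20711 genes). Cars2, Sars2 and Vars2 did not pass. For round spermatids the methods name rRNA-depleted total RNA, and cell type, table and preparation cannot be told apart.

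Fars2 rose most, at 56.5 to 67.2 (median 61.4) scaled CPM in round spermatids and 1.09 to 2.22 (median 1.76) in morula (log2 fold change 5.16 ± 0.12 (SE), adjusted p = 2.9e-16, edgeR). Vars was at 367 to 443 (median 397) against 25.9 to 32.3 (median 26.8) (log2 fold change 3.85 ± 0.08 (SE), adjusted p = 2.49e-17). Aars2, the mitochondrial alanine enzyme, was at 35.6 to 42.9 (median 37.6) against 2.03 to 5.16 (median 3.98) (log2 fold change 3.33 ± 0.15 (SE), adjusted p = 1.18e-12). Its methionine counterpart Mars2 was at 149.6 to 194.2 (median 169) against 14.3 to 19.9 (median 18.1) (log2 fold change 3.27 ± 0.10 (SE), adjusted p = 5.07e-15). The cell types do not overlap in these 4 genes, whose fold changes also lie above the median of all genes. Aars (log2 fold change 0.87 ± 0.08 (SE), adjusted p = 2.28e-08) rose by less than that median. The tables give Fars2 2125 bases of exon in round spermatids and 5747 in morula, and Aars2 3348 and 4765; with these lengths in the fit the fold changes were 6.59 and 3.84.

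Lars2 fell most, from 2214 to 3007 (median 2800.2) scaled CPM in morula to 3.99 to 178 (median 6.57) in round spermatids (log2 fold change -5.84 ± 0.88 (SE), adjusted p = 8.41e-06), and without the 2 round spermatid libraries of high Lars2 the value was -8.83. The next falls were in cytosolic enzymes. Nars held 10.4 to 12.3 (median 11.5) in round spermatids against 255 to 274 (median 267) (log2 fold change -4.54 ± 0.06 (SE), adjusted p = 4.98e-19). Rars held 12.7 to 14.4 (median 13.9) against 228 to 260.5 (median 245) (log2 fold change -4.15 ± 0.06 (SE), adjusted p = 1.06e-18), and Tars 6.23 to 8.36 (median 7.36) against 98.8 to 134 (median 116) (log2 fold change -3.96 ± 0.10 (SE), adjusted p = 2.91e-16). Wars2, the mitochondrial tryptophan enzyme, followed at 2.82 to 3.78 (median 3.14) against 27.9 to 47.8 (median 40.1) (log2 fold change -3.63 ± 0.13 (SE), adjusted p = 6.28e-14). All 5 lay lower in every round spermatid library than in any morula library. With the tables' own lengths Nars came to -3.82 and Tars to -2.80. All 8 enzymes of the complex fell, with a median of -1.55, where 33.7% of all genes fell. The other 12 cytosolic genes had a median near it, -1.41, and 8 of them fell. The 4 that rose were Aars, Cars, Farsa and Vars. Eprs (log2 fold change -2.19 ± 0.06 (SE), adjusted p = 1.78e-15), Gars (log2 fold change -1.88 ± 0.06 (SE), adjusted p = 4.33e-15), Qars (log2 fold change -0.81 ± 0.06 (SE), adjusted p = 5.48e-10) and Kars (log2 fold change -0.66 ± 0.08 (SE), adjusted p = 8.79e-07) fell.

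Partners of the enzymes were read from a list of 19 genes: scaffolds, mitochondrial amidotransferase subunits, proofreading factors and elongation factors. Between liver and gastrocnemius 4 rose and 9 fell of 16 tested (34.9% and 31.5% of all genes). Between liver and eWAT 8 rose and 0 fell (28.9% and 32.7% of all genes), and 1 and 5 with library totals (1406 and 6995 of all 10851 genes). Between eWAT and gastrocnemius 1 rose and 10 fell (41.1% and 26.3%), and 5 and 7 with library totals (7357 and 1227 of all 10851 genes). Between round spermatids and morula 3 rose and 13 fell of 18 (58.9% and 33.7%). For diet, edgeR called 0 of 9 in sperm and 0 of 17 in morula, with 0 in sperm (8.38% of all genes higher, 4.63% lower) and 1 higher and 1 lower in morula (3.55% and 2.83%) at an unadjusted p under 0.05; DESeq2 and limma-voom called 0. The scaffold Aimp2 was at 50.2 to 116 (median 108) scaled CPM in muscle, 5.22 to 17.5 (median 7.59) in liver and 4.70 to 13.9 (median 10.8) in eWAT (log2 fold change -3.41 ± 0.29 (SE), adjusted p = 4.64e-10 for liver over muscle). Aimp1 was lower in liver than in muscle as well (log2 fold change -1.17 ± 0.16 (SE), adjusted p = 6.27e-07). Eef1a2, the elongation factor form of muscle and nerve, held 276 to 445 CPM in gastrocnemius and 0 to 0.981 CPM in liver. Sepsecs, which makes selenocysteine on its tRNA, was higher in liver than in muscle (log2 fold change 1.90 ± 0.39 (SE), adjusted p = 0.000197). Gfm1, the mitochondrial elongation factor G, was higher in liver than in eWAT (log2 fold change 2.03 ± 0.24 (SE), adjusted p = 8.11e-08). In round spermatids over morula the scaffold Eef1e1 fell to 2.06 to 3.18 (median 2.66) from 41.9 to 60.95 (median 50.9) scaled CPM (log2 fold change -4.29 ± 0.13 (SE), adjusted p = 3.41e-15).

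Other known targets of Atf4 were read from a list of 28 genes. Liver over gastrocnemius gave 9 higher and 11 lower of 22 tested, against 34.9% and 31.5% of all genes. Liver over eWAT gave 6 and 12 (28.9% and 32.7% of all genes), and 5 and 15 with library totals (1406 and 6995 of all 10851 genes). eWAT over gastrocnemius gave 10 and 6 (41.1% and 26.3%), and 14 and 2 with library totals (7357 and 1227 of all 10851 genes). Round spermatids over morula gave 10 and 11 of 25 (58.9% and 33.7%), and 13 and 11 with library totals (12822 and 6360 of all 20711 genes). edgeR called 0 of 16 for diet in sperm and 0 of 22 in morula, with 1 lower in sperm (4.63% of all genes) and 1 higher in morula (3.55%) at an unadjusted p under 0.05; DESeq2 and limma-voom called 0. Psat1, an enzyme of serine synthesis, held 117 to 166 (median 131) scaled CPM in eWAT and 0.515 to 3.75 (median 1.18) in liver (log2 fold change -6.39 ± 0.29 (SE), adjusted p = 1.63e-14), and was at 1427 to 1537 CPM in morula. Cth, which makes cysteine, held 107 to 450.0 (median 290.0) in liver and 0.202 to 3.45 (median 1.90) in eWAT (log2 fold change 7.04 ± 0.42 (SE), adjusted p = 1.09e-12). Shmt2, of mitochondrial folate metabolism, rose in liver over eWAT too (log2 fold change 4.28 ± 0.32 (SE), adjusted p = 5.32e-11). Asns, the asparagine synthetase that makes the amino acid itself, was at 15.1 to 28.5 (median 24.7) in eWAT and at 0 to 0.902 CPM in gastrocnemius. Atf4 was lower in round spermatids than in morula (log2 fold change -2.99 ± 0.08 (SE), adjusted p = 1.14e-15). Asns (log2 fold change 2.42 ± 0.10 (SE), adjusted p = 4e-13) and Ddit3, a stress-induced factor of the same response (log2 fold change 3.71 ± 0.26 (SE), adjusted p = 5.78e-10), were higher.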

How the data were processed

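Gene counts of 36 RNA-seq libraries were used. BBDuk (trimming), STAR (alignment to GRCm38) and featureCounts (reads per gene) are the tools the authors give in their methods. The deposited values are raw counts in 6 tables, 1 per tissue or cell type, and were used as deposited. Sperm, round spermatid and morula libraries were made with a Nextera kit (single-ended reads in sperm, paired-ended in the others), liver, eWAT and gastrocnemius libraries with a QuantSeq 3′ kit. How featureCounts treated strand and reads with several matches is not given in the sources used here. The 24 columns of round spermatids, liver, eWAT and gastrocnemius name no sample, and were assigned to a tissue by their table; 0 columns of per-sample values were left unused. Symbols were looked up by Ensembl identifier.

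In R 4.3.3, edgeR 4.0.16 was used (filterByExpr with a minimum count of 10, TMM, quasi-likelihood fit and test, two-sided, Benjamini-Hochberg over all tested genes, threshold 0.05, no block). SE is the fold change divided by the root of the F statistic. edgeR took the place of NOISeq, which the study's methods name. Sperm and morula were each fitted alone, the 18 somatic libraries in 1 model, and round spermatids with morula. The tables do not share a kit or layout otherwise, so no other comparison was tested. Scaled CPM are CPM on TMM library sizes. A list is described by its counts and median, beside those of all genes.

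The members named are, per comparison, up to 5 largest rises and 5 largest falls past the threshold. Where none passed, up to 3 of each are named among members whose groups do not overlap. Also named are the 3 highest and lowest members in each tissue, and always Lars2, Eprs, Kars, Gars and Qars. Wars by diet in sperm and the genes described from the lists of partners and of Atf4 targets stand outside this rule. They were chosen with their values in view, as was the grouping by multi-synthetase complex. The list genes described are not always those that changed most. In round spermatids over morula, log2 fold changes of the Atf4 list ran from -9.41 to 7.96. In liver over gastrocnemius those of the partners ran from -10.4 to 2.61. Members and lists were chosen with earlier results of these data known.

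Alternatives were DESeq2 size factors, library totals, genes of mtDNA left out, no filter on low counts, DESeq2 1.42.0, limma-voom (limma 3.58.1), other thresholds, and leaving out each sperm or morula library. Leaving out gastrocnemius library 1, eWAT library 4 or the 2 round spermatid libraries with the most Lars2, the length offset, and leaving Wars out of the ratio were added later, with the data in view. Replicates differed beyond sampling noise (chi-square per degree of freedom at least 3.50). On simulated counts with 200 genes changed by 2 on the log2 scale, edgeR recovered 87.5% over 10851 genes for liver against gastrocnemius and 90% over 20711 genes for round spermatids against morula. Transcripts were compared with BLAST 2.17.0. Promoters are RefSeq's.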

Additional observations from a re-analysis of the deposited data

Results flagged for a closer look

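Of 52 sets of 6 libraries read for a value far from the others (Dixon's test at 95%), 4 had one, and chance gives about 1 in 20. Lars2 in liver library 4 was at 14.5 CPM, where the other 5 liver libraries held 7.36 to 9.37 CPM. Qars in eWAT library 4 was at 110.5 CPM (the others 56.0 to 75.8 CPM), and the summed level of the mitochondrial members was highest in the same library, at 329 CPM (the others 229 to 260 CPM). That library also held 71.5 CPM of sperm and spermatid markers and had 0.288% of its counts on genes with ribosomal RNA sequence, and their part in these values was not tested. Pars2 in gastrocnemius library 2 was at 6.41 CPM, from 6 reads.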

How the results depend on the processing

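Of 652 values of single genes under the alternatives, 602 kept direction and side of the threshold, 18 lost and 12 gained it, and 20 turned direction; of 168 counts, medians and ratios 129 stayed close and 39 moved. The cause was not tested. In sperm, 14 members passed with library totals, where 3265 of all 8643 genes passed lower and 1 higher. With DESeq2 1 member passed, against 286 of the 6795 genes with an adjusted p, and 3 members were at an unadjusted p under 0.05. The members' median was -2.19 with library totals, and that of all genes -1.82. Library totals turned Eprs (-1.60) and Tars2 (-0.11) in sperm, Eprs (0.0090) and Gars (0.0101) in morula, Eprs (-0.61), Kars (-0.39) and Lars2 (-0.54) in liver over eWAT, and Gars (0.65) and Qars (0.86) in eWAT over gastrocnemius. Gars in sperm was 0.0311 with DESeq2 size factors and 0.0341 with DESeq2, and Qars in liver over eWAT 0.0323 with genes of mtDNA left out. In morula 4 members were at an unadjusted p under 0.05. With an absolute log2 fold change above 1 as well, 7 of 32 members passed in liver over gastrocnemius. Of all 10851 genes 3036 passed higher and 2633 lower there. In liver over eWAT 6 members passed (2064 higher and 2720 lower of all genes), and in eWAT over gastrocnemius 12 (3592 and 1978). Library totals gave 22 in liver over eWAT and 13 in eWAT over gastrocnemius (8401 and 8584 of all 10851 genes). No filter on low counts gave 7 in liver over eWAT (8913 of all 29984 genes).

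For the ratio of cytosolic to mitochondrial levels, leaving out Lars2 gave medians of 9.73 in morula (HFD 8.59, LFD 10.1) and 8.52 in sperm (HFD 6.74, LFD 11.4), and leaving out Wars too 9.53 (HFD 8.41, LFD 9.91) and 4.57 (HFD 3.12, LFD 5.74). The median over genes gave 6.51 in gastrocnemius, 10.9 in morula (HFD 10.6, LFD 12.5), 5.25 in round spermatids and 4.74 in sperm (HFD 4.00, LFD 4.84). Without Kars and Gars it was 1.45 in morula (HFD 1.58, LFD 1.41) and 2.56 in round spermatids. Exchanging the length scale gave 0.822 in morula (HFD 0.909, LFD 0.795) and 0.0953 in HFD sperm.

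Leaving out each library in turn left 0 members called in sperm and in morula. The members' median ranged from -0.61 to -0.35 in sperm and from -0.05 to 0.01 in morula; in sperm Eprs ranged from -0.12 to 0.59, Gars from -0.28 to 0.30 and Kars from -0.45 to 0.0085, and in morula Eprs from -0.0768 to 0.0557, Gars from -0.0333 to 0.0217 and Qars from -0.0105 to 0.11. The ratio ranged from 0.147 to 0.239 in HFD sperm, 0.659 to 1.23 in LFD sperm, 1.66 to 1.83 in HFD morula and 1.59 to 1.66 in LFD morula. Leaving out gastrocnemius library 1 or eWAT library 4 was added after the data had been seen. In liver over gastrocnemius 19 or 20 members were then called. Of all genes 7362 of 11245 were called without gastrocnemius library 1 and 7419 of 11013 without eWAT library 4. In liver over eWAT 13 members were called in each fit (6995 and 6806 of all genes). In eWAT over gastrocnemius 21 were called in each (7511 and 7381 of all genes). Without the 2 libraries of high Lars2, 32 members were called in round spermatids over morula (18670 of all 20486 genes). No paired analysis was possible because the numbers in the column names of sperm and morula are not the replicate numbers of the sample titles, and no source used here ties them to a litter, an animal or a batch, although 2 numbers recur in both diets of sperm. In sperm 7 members, and in the fit of the 3′ libraries 4, had too few reads to be tested.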
